A study of Homo sapiens with 4 samples.

Results

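The probe sets described here are those of the short arm of chromosome 4 on an Affymetrix expression array, read in SAS cells, a line established from a human oral squamous cell carcinoma. A probe set was included when the first alignment listed for it in the deposited annotation lay on chromosome 4 with a start below 48.7 Mb and when its mean signal over the 4 arrays was 55 or more. Of 654 probe sets aligned to the arm, 343 met the floor and 311 did not, out of 27985 probe sets at or above the floor among 54613 outside the array's controls. The arm was proposed from the same difference between the groups that is given below, so the differences and their counts describe the arm and carry no test of it. The members run from 43226 to a last start at 48582155, in a genome build that is not given in the sources used here, and 332 of the 343 have a single alignment. One gene name was found for 292 of them, giving 153 genes.

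The study compared 2 arrays of HAI-1KD cells with 2 arrays of HAI-1con cells. HAI-1KD cells were infected with a retrovirus made from the pSINsi-hU6 vector, which expresses a short hairpin RNA against SPINT1, the gene of the protease inhibitor HAI-1. HAI-1con cells were infected with the same vector carrying a scrambled hairpin, and both were grown in RPMI1640 with fetal bovine serum. The labels do not say whether each group was a pool of infected cells or 1 clone, nor whether the 2 arrays of a group came from separate cultures. The hairpin targets, each 21 bases long and shown with the 12 positions at which they differ in capitals, hold the same bases in another order.
knockdown target: gggCAggCATAGAcTTgaAgG
scrambled control: gggACggAGATTTcACgaGgA
SPINT1 lies on chromosome 15, not on the arm. Its brighter probe set read 135 and 282 on the HAI-1KD arrays, against 1451 and 1445 on the HAI-1con arrays. Both HAI-1KD values lay below both HAI-1con values, a log2 difference of -2.79 (SE 0.25, limma adjusted p = 6.4e-05). The other SPINT1 probe set was called present on no array and read 203 and 263 in HAI-1KD cells, against 222 and 282 in HAI-1con cells.

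A chromosome arm is the stretch between a chromosome's end and its centromere. Its genes share a molecule of DNA but not, in general, a function, a regulator or a cell type. The short arm of chromosome 4 holds the gene of huntingtin, the growth factor receptor gene FGFR3, the histone methyltransferase gene NSD2 and many genes that nearly every cell uses. In tumour lines, stretches of this size are a unit at which expression is often set against position.

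Signals are MAS5 intensities on a linear scale. Differences are given as log2(signal + 16) in HAI-1KD minus HAI-1con, a scale that understates the change of dim probe sets. Folds are formed from this difference, so they are not the plain ratio of the signals printed beside them. Called present on the 4 arrays were between 45.6% and 48.1% of probe sets, and the median log2 value of the tested probe sets lay between 8.58 and 8.61. Of 9 squamous epithelial markers, 8 were called present on all 4 arrays, with sums of 73394 and 81982 in HAI-1KD cells, against 76558 and 73362 in HAI-1con cells. Of 6 leukocyte markers 4 were present on no array (sums of 798 and 764 in HAI-1KD cells, against 913 and 693 in HAI-1con cells), and so were 4 of 6 fibroblast markers (1003 and 1141 in HAI-1KD cells, against 827 and 774 in HAI-1con cells) and 1 of 4 endothelial markers (976 and 1341 in HAI-1KD cells, against 643 and 621 in HAI-1con cells). Among the squamous markers KRT5 and KRT14 passed the test with higher values in HAI-1KD cells, and SFN and DSG3 with lower ones. The endothelial genes CDH5 and TEK and the fibroblast gene FBLN1 passed the test with higher values in HAI-1KD cells. The part of other cell types in the differences on the arm was not tested.

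The promoters of 4 genes at the extremes of the arm are shown, NICOL1 and SEL1L3 with the lowest differences and FGFR3 and TMEM156 with the highest 2. Each runs from 250 bases before to 50 bases after the start of the gene, 5′ to 3′ on the gene's own strand, from RefSeq on GRCh38.p14. Capitals mark the GC box, GGGCGG or CCGCCC on the other strand, the motif of SP-family factors. NICOL1 lies at chr4:2041745-2042044 on the plus strand, SEL1L3 at chr4:25863517-25863816 on the minus strand, FGFR3 at chr4:1793043-1793342 on the plus strand and TMEM156 at chr4:39032360-39032659 on the minus strand.
NICOL1 promoter: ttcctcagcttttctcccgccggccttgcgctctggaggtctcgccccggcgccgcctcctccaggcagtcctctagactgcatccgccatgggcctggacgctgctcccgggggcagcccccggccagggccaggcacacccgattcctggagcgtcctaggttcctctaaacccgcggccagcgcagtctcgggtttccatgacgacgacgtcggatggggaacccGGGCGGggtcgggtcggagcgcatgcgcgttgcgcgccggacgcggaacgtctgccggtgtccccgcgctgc
SEL1L3 promoter: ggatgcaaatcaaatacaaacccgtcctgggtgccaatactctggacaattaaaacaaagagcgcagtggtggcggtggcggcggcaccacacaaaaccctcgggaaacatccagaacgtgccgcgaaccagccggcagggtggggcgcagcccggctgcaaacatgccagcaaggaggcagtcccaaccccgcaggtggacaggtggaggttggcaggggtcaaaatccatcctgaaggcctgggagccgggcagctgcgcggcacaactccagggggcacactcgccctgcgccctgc
FGFR3 promoter: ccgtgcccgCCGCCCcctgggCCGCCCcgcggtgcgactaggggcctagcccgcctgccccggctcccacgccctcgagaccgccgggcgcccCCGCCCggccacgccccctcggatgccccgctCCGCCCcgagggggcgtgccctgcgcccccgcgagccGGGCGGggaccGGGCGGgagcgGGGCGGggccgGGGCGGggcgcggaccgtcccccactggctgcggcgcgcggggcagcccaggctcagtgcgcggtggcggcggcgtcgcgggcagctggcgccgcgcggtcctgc
TMEM156 promoter: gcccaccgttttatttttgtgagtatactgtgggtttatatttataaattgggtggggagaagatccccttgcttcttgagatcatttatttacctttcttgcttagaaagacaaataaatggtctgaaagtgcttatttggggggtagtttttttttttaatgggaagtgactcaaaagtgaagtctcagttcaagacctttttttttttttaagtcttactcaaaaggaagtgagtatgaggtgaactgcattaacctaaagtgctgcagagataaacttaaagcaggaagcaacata
The FGFR3 promoter holds 8 GC boxes and is 86.3% G and C, and the NICOL1 promoter holds 1 at 71.3%. The SEL1L3 promoter has none at 63.0%, and the TMEM156 promoter has none at 35.3%. Both directions of difference thus include a promoter with the motif and one without it.

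Promoters were matched for 124 of 147 member genes, leaving out genes that the GRCh38.p14 table places on another chromosome. The GC box was found in 83 of the 124 (66.9%), against 70.3% of 9939 promoters of tested genes elsewhere and 44.6% of all 27305 promoters. The CCAAT box (CCAAT or ATTGG) was in 36.3% of member promoters and 36.9% of tested genes elsewhere, and 35.7% of all. The TATA box (TATAAA or TTTATA) was in 8.06% of member promoters, against 5.81% of tested genes elsewhere and 12% of all. The E-box (CACGTG, the same on both strands) was in 12.1% of member promoters, against 10.2% of tested genes elsewhere and 7.43% of all. Member promoters had a median G and C content of 70.2%, against 65.3% for tested genes elsewhere. The 82 promoters of genes called lower had a median of 69.8% and the other 42 one of 70.8%.

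Signals from the short arm were lower in HAI-1KD cells over nearly its whole length. The median log2 difference of the 343 members was -0.70, that is 61.5% of the HAI-1con level, against 0.04 for the 669 tested probe sets on the rest of chromosome 4 and 0.04 for all tested probe sets. The members spread around this value with the 25th and 75th percentiles at -1.0 and -0.33. Below 0 lay 299 of 343 members (87.2%), against 310 of 669 (46.3%) on the rest of the chromosome and 45.9% of all tested.

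**Figure D1:**
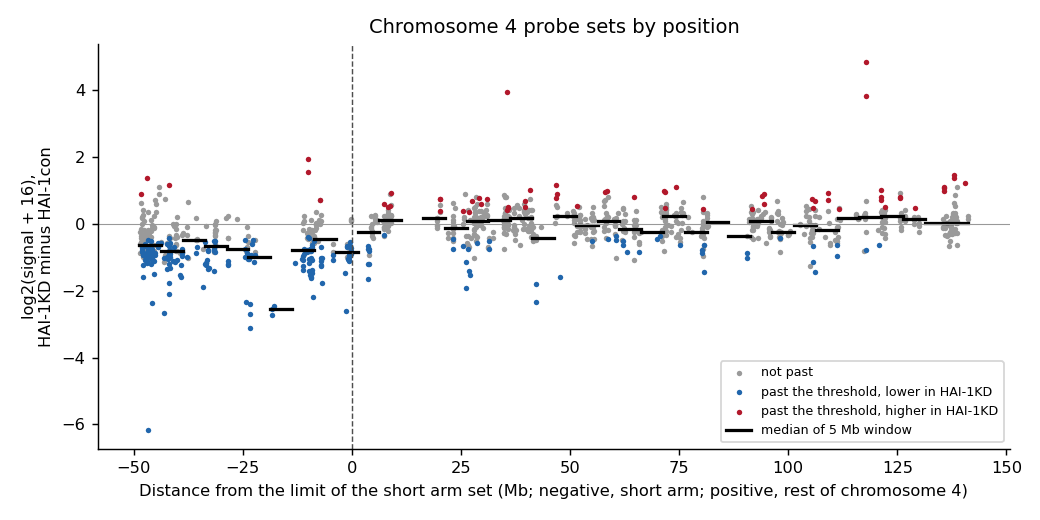
Difference of each tested probe set of chromosome 4 (log2(signal + 16), HAI-1KD minus HAI-1con, 2 arrays each) against its distance in Mb from the limit of the short arm set, with black bars at the median of each 5 Mb window and colours for limma adjusted p below 0.05. Left of the dashed line the window medians lie between -2.56 and -0.46, and right of it between -0.42 and 0.25.

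The 4 arrays separated by group. Taking each probe set's mean over the arrays as 0, the median member stood at -0.31 and -0.37 on the HAI-1KD arrays, against 0.35 and 0.35 on the HAI-1con arrays. The 4 single comparisons of a HAI-1KD with a HAI-1con array gave medians of -0.63, -0.66, -0.76 and -0.73. Within groups the median was 0.04 between the HAI-1KD arrays and 0.02 between the HAI-1con arrays. These are medians of signed differences, which cancel, so they do not measure the spread between replicates. The medians between groups were larger, but the arm was picked from that contrast, so nothing is read from this. In bulk samples, fewer cells with a transcript and less of it per cell cannot be told apart.

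**Figure D2:**
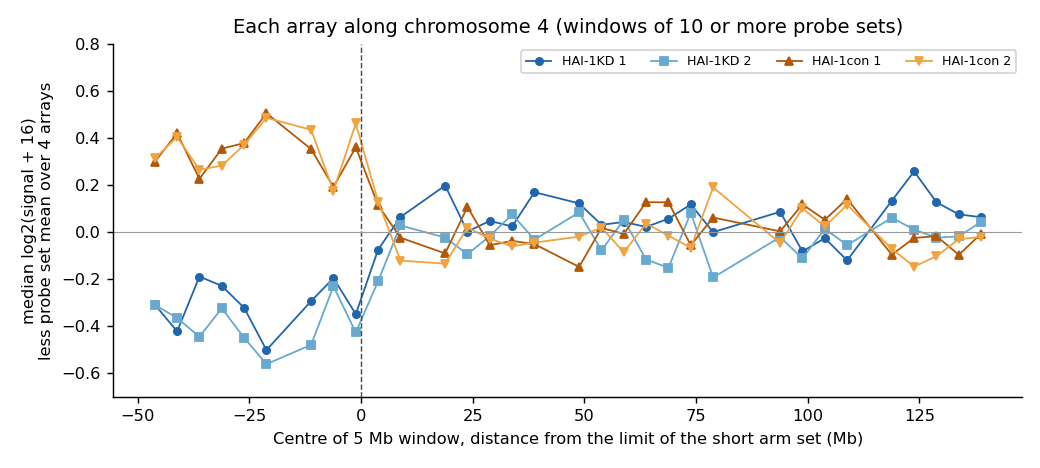
Median of each array in 5 Mb windows along chromosome 4 (log2(signal + 16) less the probe set's mean over the 4 arrays) against distance in Mb from the limit of the short arm set, for windows of 10 or more probe sets. On the short arm both HAI-1KD arrays lie below both HAI-1con arrays in every window shown, and beyond it the lines cross.

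By limma's test over all 27985 tested probe sets, 179 of the 343 members (52.2%) had an adjusted p below 0.05 with lower signal in HAI-1KD cells, 6 (1.75%) with higher signal, and 158 did not pass. Over all tested probe sets the same threshold called 8.06% lower and 7.09% higher. Since the arm was picked from this contrast, nothing is read from that gap. Members made up 1.23% of tested probe sets and 7.94% of all lower calls. On the rest of chromosome 4, 47 of 669 were called lower and 57 higher. Both HAI-1KD values lay below both HAI-1con values for 269 members and above both for 18, where 26.2% and 31.2% of all tested probe sets did so. Leaving out HAI-1con replicate 1 or 2 lowered the count over all tested probe sets to 2123 and 2367, against 4240 with all arrays, and the count of members called lower was between 130 and 177 as each array was left out in turn. Each of these refits leaves 1 array in a group, which is assumed to vary like the other group, so they are no independent check.

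**Figure D3:**
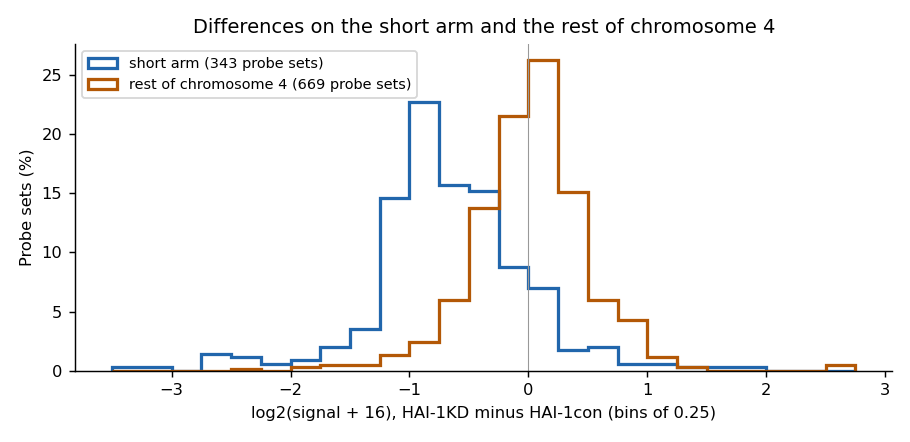
Share of probe sets (%) by log2 difference, HAI-1KD minus HAI-1con, in bins of 0.25, for the short arm (343 probe sets) and the rest of chromosome 4 (669), with values beyond the axis put in its end bins. The curve of the short arm has its median at -0.70 and that of the rest of the chromosome at 0.04.

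Differences were larger among brighter probe sets. With the members cut into 4 groups by mean signal, the dimmest (up to 114) had a median of -0.43, the next (up to 311) -0.64, the next (up to 1240) -0.85 and the brightest -0.84. Members called present on all 4 arrays, 254 in number, had a median of -0.75. The 63 called present on 1 to 3 arrays had -0.64, and the 26 called present on none had -0.38. The 311 arm probe sets below the floor had a median of 0.00, and 156 of them lay below 0. At the floor itself, the members nearest above it had differences of 0.19 and 0.27 (both unnamed) and -0.26 (ZNF718), and probe sets just below it had 0.13 (ADD1) and -0.80 (LETM1).

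Differences also varied with the alignment of the probe set. The deposited alignments carry a score whose scale is not stated. The 199 members with a score of 90 or more had a median of -0.79, the 106 between 60 and 90 had -0.65, and the 38 below 60 had -0.41. Members with 1 alignment had -0.72, whereas the 11 with several had 0.09. The 51 members without a single gene name had a median of -0.44, and 14 of them were called lower. For 7 members the gene table places the named gene on another chromosome (GFOD2, RNPS1 with 2 probe sets, CDC42, PTTG3P and ZBTB12 among them). Their median was 0.12, and none passed the test. Without them, 147 genes remained, each taken at its brightest probe set. These had a median of -0.83, 132 lay below 0, 98 were called lower and 4 higher.

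Along the arm, windows of 5 Mb from the chromosome end gave medians of -0.62 (105 probe sets), -0.82 (55), -0.48 (14), -0.65 (31) and -0.74 (19) up to 25 Mb. Between 25 and 30 Mb the median was -0.99 (12), and 3 probe sets between 30 and 35 Mb, all of PCDH7, had a median of -2.56. The last windows gave -0.77 (48), -0.46 (32) and -0.83 (24). By cytogenetic band, all 24 members in p15.2 lay below 0 with a median of -0.89, and 52 of 56 in p16.1 did so with a median of -0.82. In p13, 13 of 20 lay below 0, with a median of -0.64. The longest unbroken run of genes whose brightest probe set lay below 0 covered 27 genes, starting at KLHL5 and ending at OCIAD2, the last gene before the limit. LIMCH1, at -0.01, lies within it.

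At the limit the pattern did not stop at once. OCIAD2, a mitochondrial and endosomal protein gene and the last member, read 3285 and 3621 in HAI-1KD cells, against 6458 and 6352 in HAI-1con cells (log2 difference -0.89). The last member but one, an OCIAD1 probe set, read 1230 and 1198 in HAI-1KD cells, against 1171 and 1105 in HAI-1con cells. The first 8 probe sets beyond the limit, with starts between 52.4 and 52.7 Mb, were 3 of DCUN1D4, which encodes a neddylation co-factor, 3 of SGCB, the beta-sarcoglycan gene, 1 of SPATA18 and 1 unnamed. All 8 lay below -0.5, with a median of -0.87, and 7 were called lower. From USP46 at 53.1 Mb on, the next 20 probe sets had a median of -0.05. This run of 8 was singled out after its values were seen. Without it the rest of chromosome 4 kept its median of 0.04.

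Set beside the other arms with 50 or more tested probe sets, 40 in number, the short arm of chromosome 4 had the lowest median. The others ranged from -0.52 to 0.15. The nearest was 5p, with a median of -0.52 and 106 of 242 probe sets called lower, followed by 7q at -0.30 and 9p at -0.27.

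The largest falls on the arm went far beyond its median. NICOL1, which encodes a secreted co-factor of NELL2, read 8.17 and 10.7 in HAI-1KD cells, against 1962 and 1698 in HAI-1con cells. It was called present on both HAI-1con arrays and on no HAI-1KD array. Its fold was 70.6 with the HAI-1KD values limited from below. A HAI-1KD value dimmer than every signal called present on its array was raised to the dimmest such signal. That signal can come from any probe set, so it is no detection limit of this one. Absent calls also fell on brighter signals, such as 203 and 263 in HAI-1KD cells for the other SPINT1 probe set. NICOL1 met the floor only through its HAI-1con signal (means of 9.41 in HAI-1KD and 1830 in HAI-1con cells). The NICOL1 probe set is of the _x_at kind, whose probes may match other transcripts.

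SEL1L3, a membrane protein gene, read 352 and 246 in HAI-1KD cells, against 2677 and 2700 in HAI-1con cells, which is 8.71-fold lower. Its 3 probe sets had log2 differences between -3.12 and -2.39. The dimmest of them met the floor only through its HAI-1con signal (means of 46.7 in HAI-1KD and 289 in HAI-1con cells). ATP10D, a gene of a lipid-flipping P4-ATPase, read 284 and 326 in HAI-1KD cells, against 1998 and 1843 in HAI-1con cells, 6.05-fold lower. In these genes both HAI-1KD values lay far below both HAI-1con values.

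PCDH7, a protocadherin gene of cell adhesion, read 79.3 and 84.3 in HAI-1KD cells, against 579 and 542 in HAI-1con cells, and its 3 probe sets lay between -2.74 and -2.45. EVC2, a gene of the ciliary complex that tunes Hedgehog signalling, read 18.1 and 7.89 in HAI-1KD cells, against 180 and 151 in HAI-1con cells. It was called present on no HAI-1KD array, and its fold, limited as for NICOL1, was 6.03. CPLX1, the gene of the synaptic vesicle protein complexin 1, read 22.4 and 23.8 in HAI-1KD cells, against 77.1 and 132 in HAI-1con cells, a log2 difference of -1.59. It too was called present on both HAI-1con arrays and on no HAI-1KD array. EVC2, CPLX1 (means of 23.1 in HAI-1KD and 104 in HAI-1con cells) and the dimmer PCDH7 probe sets met the floor only through HAI-1con signal. The means of those PCDH7 probe sets were 23.6 and 13.5 in HAI-1KD cells, against 249 and 142 in HAI-1con cells. No support is drawn from these falls.

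CPEB2, a cytoplasmic polyadenylation protein gene, read 186 and 139 in HAI-1KD cells, against 661 and 631 in HAI-1con cells. Its dimmer probe set had a smaller difference of -0.75 and did not pass. SMIM14 read 373 and 287 in HAI-1KD cells, against 1010 and 1025 in HAI-1con cells, and COMMD8, a gene of the COMMD family of trafficking factors, read 2241 and 2043 in HAI-1KD cells, against 5868 and 5929 in HAI-1con cells. CCDC149 read 18.7 and 10.3 in HAI-1KD cells, against 201 and 90.2 in HAI-1con cells, without overlap but with the 2 HAI-1con arrays well apart. This CCDC149 probe set was called present on no array, and the gene's other probe set had a log2 difference of -0.81 that did not pass (limma adjusted p = 0.15). The first met the floor only through its HAI-1con signal (means of 14.5 in HAI-1KD and 146 in HAI-1con cells). Without HAI-1con replicate 1 the log2 difference of CCDC149 was -1.81 and its limma adjusted p 0.10, and without HAI-1con replicate 2 that of CPLX1 was -1.25 with 0.24.

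**Figure D4:**
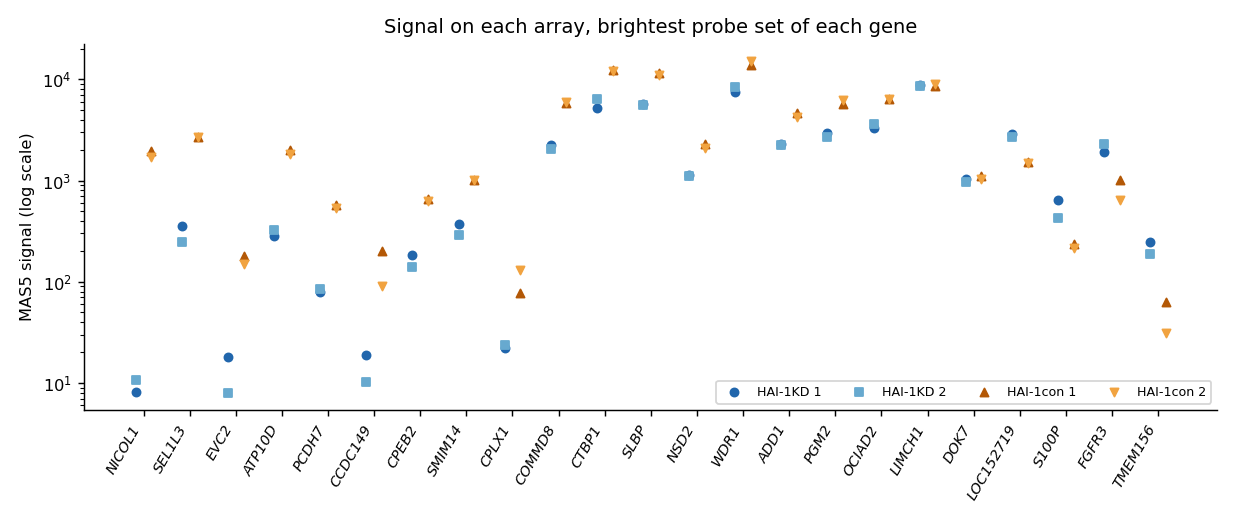
MAS5 signal (log scale) on each array for the brightest probe set of the 10 genes with the lowest differences, 9 genes between, and the 4 called higher, with HAI-1KD to the left of HAI-1con within each gene. NICOL1 shows the widest gap (8.17 and 10.7 in HAI-1KD, against 1962 and 1698 in HAI-1con), LIMCH1 none, and TMEM156 the widest in the other direction.

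Against the arm's direction, 4 genes were called higher. TMEM156, a membrane protein gene, had a log2 difference of 1.93 through a probe set of the _x_at kind. The gene read 250 and 189 in HAI-1KD cells, against 63.0 and 31.4 in HAI-1con cells. Its other probe set read 146 and 90.3 in HAI-1KD cells, against 32.3 and 26.1 in HAI-1con cells, and was called present on the HAI-1KD arrays alone. Both TMEM156 probe sets met the floor only through HAI-1KD signal. Their means were 219 and 118 in HAI-1KD cells, against 47.2 and 29.2 in HAI-1con cells. FGFR3, the receptor tyrosine kinase gene, read 1896 and 2306 in HAI-1KD cells, against 1009 and 641 in HAI-1con cells, 2.57-fold higher.

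S100P, a calcium-binding protein gene often studied in carcinomas, read 638 and 430 in HAI-1KD cells, against 235 and 217 in HAI-1con cells, 2.23-fold higher. The locus LOC152719 read 2916 and 2697 in HAI-1KD cells, against 1511 and 1491 in HAI-1con cells, through a probe set of the _x_at kind. In each of the 4, both HAI-1KD values lay above both HAI-1con values. Of the 147 genes, 15 in all lay at or above 0. The limma calls of FGFR3 and S100P were lost when the variance was estimated without its trend on the mean (adjusted p = 0.061 for each).

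LIMCH1, a gene of a regulator of non-muscle myosin, was bright and differed little. Its brightest probe set read 8714 and 8679 in HAI-1KD cells, against 8619 and 8916 in HAI-1con cells, and its 5 probe sets ranged from -0.01 to 0.72, of which 1, at 0.72, was called higher. DOK7, an adaptor gene of the muscle receptor kinase MuSK, read 1028 and 970 in HAI-1KD cells, against 1102 and 1047 in HAI-1con cells (-0.10). APBB2, a gene of an adaptor that binds the amyloid precursor protein, had -0.12 at its brightest probe set.

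Genes called lower were found in each of 9 functional lists over the arm, which were drawn up with results of these data known. The lists take each gene at its brightest probe set. They stand beside a median of -0.83 and 98 called lower (66.7%) among all 147 genes of the arm, and beside a median of 0.04 and 8.06% called lower among all tested probe sets. Nothing particular to a list is read from its count. Of 14 mitochondrial and metabolic genes 12 were called lower and 2 did not pass, with a median log2 difference of -0.82. ATP5ME, a subunit gene of ATP synthase, read 7184 and 10160 in HAI-1KD cells, against 14817 and 14757 in HAI-1con cells. PGM2, the phosphopentomutase gene, read 2955 and 2719 in HAI-1KD cells, against 5740 and 6275 in HAI-1con cells.

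Of 13 genes of lysosome, secretory pathway and membrane lipids, 11 were called lower and 2 did not pass (median -0.93). SLC30A9, a zinc transporter gene, read 1473 and 1274 in HAI-1KD cells, against 3138 and 3373 in HAI-1con cells. GAK, the gene of a kinase that helps uncoat clathrin vesicles, read 1550 and 1747 in HAI-1KD cells, against 3049 and 3289 in HAI-1con cells. HTT, the huntingtin gene, had a log2 difference of -0.85.

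Of 14 chromatin and transcription genes 9 were called lower and 5 did not pass (median -0.63). CTBP1, a transcriptional co-repressor gene, read 5276 and 6435 in HAI-1KD cells, against 12427 and 12073 in HAI-1con cells. NSD2, the histone H3 lysine methyltransferase gene, read 1146 and 1119 in HAI-1KD cells, against 2302 and 2113 in HAI-1con cells, and 5 of its 6 probe sets were called lower. RBPJ, the DNA-binding factor gene of the Notch pathway, read 2078 and 1914 in HAI-1KD cells, against 2995 and 3120 in HAI-1con cells.

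Of 9 genes of cell division and DNA replication 7 were called lower and 2 did not pass (median -0.83). SLBP, which binds the stem-loop of histone messengers, read 5700 and 5605 in HAI-1KD cells, against 11506 and 11157 in HAI-1con cells. NCAPG, a condensin subunit gene, read 3965 and 4173 in HAI-1KD cells, against 4819 and 5706 in HAI-1con cells, a difference of -0.37 that did not pass (limma adjusted p = 0.055). The replication factor C gene RFC1 had a log2 difference of -1.06.

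Of 9 genes of RNA processing and translation 7 were called lower and 2 did not pass (median -0.76). DHX15, a splicing helicase gene, read 10454 and 9865 in HAI-1KD cells, against 14207 and 13874 in HAI-1con cells, and LYAR, a nucleolar protein gene, read 1749 and 1800 in HAI-1KD cells, against 2854 and 2840 in HAI-1con cells. The calls of DHX15, RBM47 and SEPSECS, and of KLHL5 and STIM2, were lost when either HAI-1con array was left out. The log2 difference of DHX15 was then -0.45 and -0.48. Without the variance trend the limma calls of DHX15 (adjusted p = 0.12), RBM47 (0.11), LYAR (0.061), RBPJ (0.078), ATP5ME (0.11), OCIAD1 (0.054), and, of the cytoskeletal genes, WDR1 (0.051) were lost. So were those of MED28, PDS5A, TMEM33, KLHL5, RGS12, BOD1L1, STIM2, KLF3 and FRYL, with limma adjusted p between 0.052 and 0.17.

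Of 11 cytoskeletal and ciliary genes 9 were called lower and 2 did not pass (median -0.95). WDR1, which helps cofilin take actin filaments apart, read 7475 and 8509 in HAI-1KD cells, against 13887 and 15341 in HAI-1con cells. ADD1, the alpha-adducin gene, read 2316 and 2270 in HAI-1KD cells, against 4661 and 4257 in HAI-1con cells. Of 5 genes of the ubiquitin system 4 were called lower and 1 did not pass (median -0.81), with the conjugating enzyme gene UBE2K at 3763 and 3841 in HAI-1KD cells, against 6502 and 6813 in HAI-1con cells.

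Of 12 genes of growth factor and receptor signalling 7 were called lower, 1 higher (FGFR3) and 4 did not pass (median -0.91). TNIP2, an inhibitor gene of NF-kB signalling, read 979 and 1127 in HAI-1KD cells, against 2058 and 2259 in HAI-1con cells. Of 6 cell surface and secreted genes, 3 were called lower, 1 higher (S100P) and 2 did not pass, and these held both the lowest log2 difference on the arm (NICOL1, -6.18) and one of 1.16. Over all 147 genes, 112 (76.2%) lay between -1.5 and -0.3, 9 lay lower and 26 higher.

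Several probe sets of the same gene could be compared. The 32 genes with 3 or more members held 125 probe sets, and in 24 genes every probe set lay below 0. In 8 genes every probe set was called lower. Probe sets were grouped by the name they carry, not by position. A probe set named RAB28 (-1.17) starts at 38965125 and overlaps those of RFC1. The other RAB28 probe sets start at 12978446 and 12979268. The median SD within a gene was 0.30. Over the 147 genes the 25th and 75th percentiles of the difference were -1.04 and -0.41. The 3 probe sets of CTBP1 differed from each other by at most 0.13 and those of FRYL, also 3, by 0.13. Those of RGS12 differed by 1.75, those of TMEM33 by 1.35 and those of ADD1 by 1.04. At OCIAD1, 2 probe sets had -0.72 and -0.82 and were called lower, and 3 lay at 0.09, 0.12 and 0.13 and were not, of which 1 was called present on no array.

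**Figure D5:**
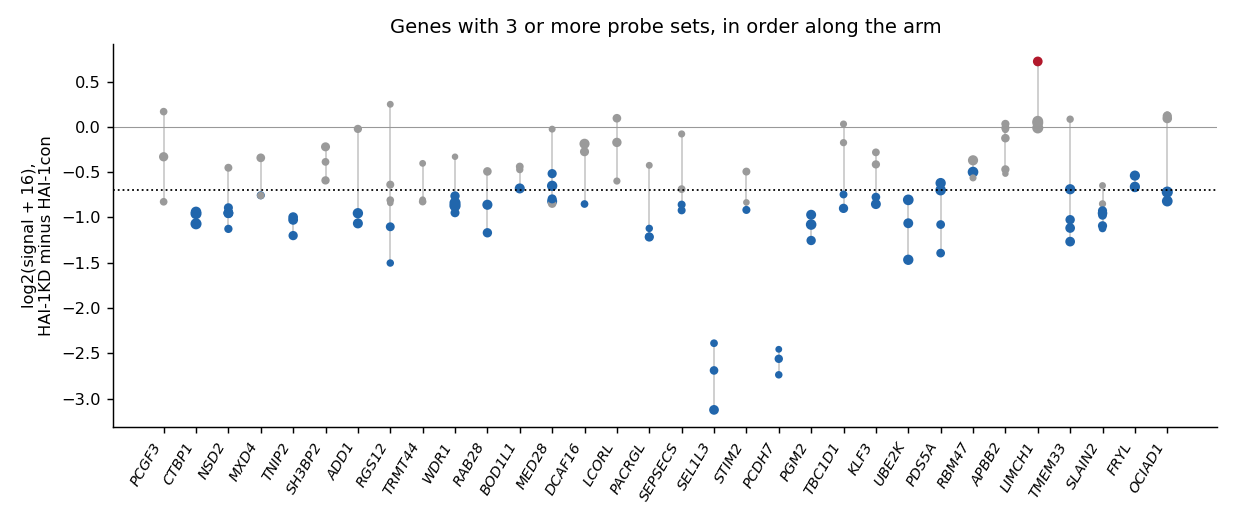
Log2 difference (HAI-1KD minus HAI-1con) of every member probe set of the 32 genes with 3 or more, in order along the arm, larger points for higher mean signal, blue for called lower, red for called higher, grey for not passing, and the dotted line at the members' median of -0.70. The probe sets of SEL1L3 and PCDH7 lie together well below the line, and those of LIMCH1 near or above 0.

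Detection calls moved the same way as the signals they come from. Called present on both HAI-1con arrays and no HAI-1KD array were 16 members (4.66%), against 1.20% of all tested probe sets, and 2 (0.583%) were present on both HAI-1KD arrays and no HAI-1con array, against 1.31%. Since the arm was picked from this contrast, nothing is read from these gaps. Some of the 16 met the floor only through their HAI-1con signal, such as EVC2 with means of 13 in HAI-1KD and 165 in HAI-1con cells. Among the 311 arm probe sets below the floor, the shares were 1.29% and 0.643%. Beside NICOL1, EVC2 and CPLX1, the 16 included 2 probe sets of SLC2A9, a urate and hexose transporter gene, with log2 differences of -1.23 and -1.60, and N4BP2, at 27.5 and 34.6 in HAI-1KD cells, against 174 and 227 in HAI-1con cells. The 2 were probe sets of TMEM156 and RGS12, and that of RGS12 had a difference of 0.25 that did not pass.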

How the data were processed

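Total RNA of 4 samples was hybridised to Affymetrix arrays. The authors deposited linear intensities, which the submitters' processing notes name as MAS5 signals with no version. The detection calls and p-values were used as the authors deposited them. The log2 columns the authors deposited are log2 signals centred on the median of each probe set, as recomputed for 54675 of 54675 probe sets within 1e-05. Alignments come from the deposited annotation, with aligner and build not given in the sources used. Names were updated through the GRCh38.p14 gene table.

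From the signals, log2(signal + 16) was fitted without further scaling by limma 3.58.1 in R 4.3.3 (lmFit, eBayes with a mean-variance trend, two-sided, no covariate), over 27985 probe sets with mean signal of 55 or more. P-values were adjusted by Benjamini-Hochberg, with a threshold of 0.05. The fit had 2 residual and 8.6 prior degrees of freedom, and was tested on simulated data. The smallest exact two-sided permutation p with 2 arrays in each group is 0.333. Separate cultures are not named in the labels. The p-values therefore cover the spread between these samples alone, possibly technical, and precision is limited by the number of arrays. Deviations from the group means of arrays numbered 1 correlated at -0.02, so the numbers were not taken to pair samples.

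Members and lists were chosen with earlier results of these data known. Named are SPINT1, the 10 lowest and up to 6 highest called genes whose groups do not overlap, the 3 brightest of each list, genes with 3 or more probe sets, and probe sets next to the limits. Other genes were named after their values were seen. Where 1 group has no array with a present call, its dimmer values are raised before the fold is formed. They are raised to the dimmest signal called present on their array. Some genes that meet the rule are not described. Other scalings, pseudocounts, filters, variance models, probe set choices, arrays left out and a replicate block were tried.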

Additional observations from a re-analysis of the deposited data

How the results depend on the processing

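The median of the arm stayed below 0 under each alternative tried, and that of the arm minus the rest of chromosome 4 likewise. With the deposited log2 values they were -0.74 and -0.79, with no filter on signal -0.36 and -0.40, with probe sets present on all arrays -0.75 and -0.79, with the upper quartile of signal -0.85 and -0.92, with 1 probe set per gene -0.82 and -0.84, and with a pseudocount of 64 -0.60 and -0.63. A pseudocount of 1 gave -0.74 for the arm. Members called lower numbered 101 (3 higher, 2638 called over all) without probe sets of shared sequence, 100 (3 higher, 1273 over all) without the variance trend, and 98 with 1 probe set per gene. The first tests fewer probe sets, with 47.2% of 214 members called lower. The last is taken from the main fit without a new test. There 64.9% of 151 genes were called lower, against 52.2% of the 343 members. For the variance trend, with 29.2% of members called lower, the cause was not tested. With no filter, 133 of 654 arm probe sets (20.3%) were called lower, 4 higher and 2211 over all. In the upper quartile, 135 of 164 members (82.3%) were called lower, 3 higher and 3468 over all. The share called lower thus depended strongly on the signal floor. Members whose groups do not overlap were 150 lower and 5 higher of 164 in the upper quartile, and 163 lower of 214 without shared sequence. With no filter 69 of 654 were higher, and 10 of 254 when present on all arrays. The share without overlap over all probe sets was not counted in these settings or with arrays left out, so nothing is read from these counts. Leaving out each array in turn gave 130 to 177 members called lower, 5 to 7 higher, 2123 to 4690 over all, a median of -0.72 to -0.65 for the arm, 0.01 to 0.07 for the rest and -0.73 to -0.70 for the difference, and 282 to 285 and 27 to 36 members without overlap, lower and higher, a count that fewer arrays raise. With the replicate block, 180 members were called lower, 6 higher and 4370 over all, with an arm median of -0.70. Over 16 alternatives for 57 named genes, 797 values kept direction and side of the threshold, 48 lost the call, 8 gained it and 4 changed sign. Those 4, none called, were LIMCH1 (-0.04 to 0.01 as each array is left out, above 0 without HAI-1con replicate 2, and 0.04 at its next brightest probe set), LCORL (0.10 at its next brightest) and APBB2 (-0.26 to 0.01, above 0 without HAI-1KD replicate 1). Medians of 5 Mb windows ranged from -3.43 to -0.12 over the alternatives, below 0 in each. Low signal limits dim members most.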
